A study of Mus musculus with 6 samples.

Results

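The cells described here are the barcodes of 1 gene set in 1 single-cell library of mouse hypothalamus, split by how many molecules of Snap25, a neuronal gene, they carried. A molecule is counted by its unique molecular identifier (UMI). The classes were chosen by the measured Snap25 count: the 49 barcodes with at least 2 Snap25 UMIs are called Snap25-positive and the 55 with 0 or 1 are called Snap25-low. The series holds 1879 distinct barcodes in all, once rows that stand in several tables are counted once. The cells came from C57/Bl6 mice that carry both KLB-CRE and Ai14, so both classes share these alleles. Hypothalami of 3 mice were pooled for each of 3 captures, and sorting was on tdTomato fluorescence and Hoechst viability. Ai14 is a reporter that makes tdTomato permanently once Cre has acted, so the sort takes cells whose lineage has used the Klb promoter, whether or not Klb is still read. Each capture was sequenced with 2 targeted primer panels, and ages and sexes were not given in the sources used here. The barcodes of both classes are those of the table labelled panel 2 of replicate 3 that hold counts in its last 80 amplicon columns. These columns measure 75 genes, and neither Klb nor tdTomato is among them. All of them, with the same counts, stand under other gene names in the table labelled panel 1 of that replicate, which was not used for values.

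Snap25 encodes a membrane protein of the machinery that fuses synaptic vesicles with the nerve terminal, and in brain it is a widely used mark of neurons. C1qa encodes a chain of C1q, the starter of the classical complement cascade, and in brain it is made mainly by microglia, the resident immune cells. Tac1 encodes the precursor of substance P and neurokinin A, and Slc17a6 encodes VGLUT2, the transporter that loads glutamate into vesicles of most excitatory hypothalamic neurons. A neuron would be recognised by several such genes together, and a microglial cell by C1qa with Cx3cr1, the fractalkine receptor, and Aif1, a calcium-binding protein of the same cells.

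The classes rest on Snap25 itself, so its own difference is given as a description only. Snap25 (NM_011428.3) was found in 80 barcodes of both classes (76.9%, exact 95% interval 67.6 to 84.6). There were 24 barcodes with 0, 31 with 1, 21 with 2, 12 with 3, 8 with 4, 6 with 5, 1 with 6 and 1 with 8 Snap25 UMIs. The counts therefore ran on without a gap from 0 to 6, and the 31 barcodes just under the limit and the 21 just above it differ by a single molecule. Both classes lie in 1 library, which makes 1 sample a class, so no test between them was possible. All intervals are at 95% and cover counting error only, and all but that of the C1qa difference are exact. That one joins the exact intervals of the 2 shares by Newcombe's method. Counts of UMIs have Poisson intervals, shares of barcodes have Clopper-Pearson intervals, and ratios of 2 levels have the conditional interval of 2 Poisson counts. The limit given for a count of 0 is not such an interval but 3 counts of the total.

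C1qa was in every barcode of both classes and took most of the UMIs of each one, so that the Snap25-positive barcodes were dominated by C1qa as well. Its share of the UMIs of a barcode, Snap25 left out, ran from 86.8% through a median of 92.9% to 96.1% in the Snap25-positive class. In the Snap25-low class it ran from 89.2% through 93.7% to 97.8%. The ranges overlapped over most of their length, and the lowest share in any barcode was 86.8%. Summed over barcodes, C1qa was 37145 of 40266 UMIs (92.2%, 91.98 to 92.5) in the Snap25-positive class. It was 34111 of 36447 UMIs (93.6%, 93.3 to 93.8) in the Snap25-low class. The difference was -1.34 points (-1.71 to -0.977), so the Snap25-positive barcodes held a larger part of other genes, 7.75% against 6.41% of UMIs, which is 1.21 times as much. When barcodes were classed instead by Snap25 per UMI other than C1qa, above the median against at or below it, the C1qa difference turned to 0.338 points.

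The Snap25-positive barcodes were deeper. The UMIs of all genes other than Snap25 ran from 432 through a median of 805 to 1317 in this class, and from 309 through 617 to 1198 in the Snap25-low class. C1qa UMIs had medians of 745 and 578. UMIs of the genes other than Snap25 and C1qa ran from 23 through 57 to 159 in the Snap25-positive class and from 10 through 41 to 102 in the other. All 3 measures were thus higher in the median of the Snap25-positive class, with wide overlap. Over the 49 and 55 barcodes together, Spearman's rho of Snap25 UMIs was 0.41 with the UMIs of all other genes, 0.44 with those other than C1qa and 0.39 with C1qa alone. The points share 1 library and each barcode's capture of RNA, so these values are a description. How much of any further difference the depth accounts for was not tested.

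**Figure D1:**
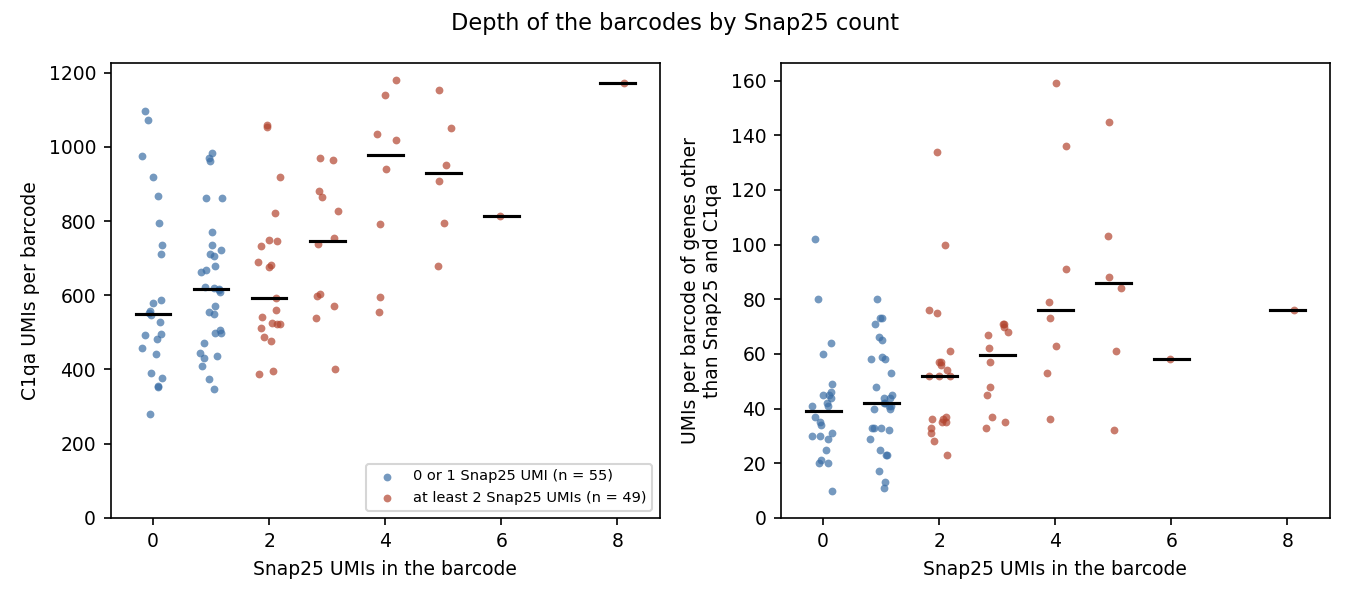
Each point is 1 barcode, placed by its Snap25 UMIs (x axis, shifted sideways at random to show all points), with C1qa UMIs (left) and UMIs of the genes other than Snap25 and C1qa (right) on the y axes. Black lines are medians, and the median on the right was 39 at 0 and 77.5 at 4 or more Snap25 UMIs, while the median of all UMIs other than Snap25 was 655 at 1 and 627 at 2.

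Apart from Snap25 and C1qa, 15 genes had at least 20 UMIs and could be compared, and none of them differed 1.5-fold between the classes once C1qa was out of the totals. On this scale, UMIs per 1000 UMIs other than Snap25 and C1qa, 0 of the 15 genes were at least 1.5-fold higher and 0 at least 1.5-fold lower in the Snap25-positive barcodes (0% of the genes compared in each direction). The ratios ran from 0.80 for Rax to 1.36 for Nts, with a median of 1.05. 8 genes had a ratio above 1 and 7 a ratio below it. The interval of the ratio held 1 for 14 of the 15 genes. The exception was Mag, at 1.19 (1.02 to 1.39). Without the 3 barcodes with the most Mag its ratio was 1.01 (0.86 to 1.19). All 3 were Snap25-positive and were picked by Mag itself, so leaving them out could only lower the ratio. Without the 5% of barcodes with the most UMIs the ratio of Mag was 1.26 (1.07 to 1.48). A 1.5-fold difference in one direction or the other lay inside the intervals of 7 genes. It was 1.5-fold higher for Olig1, Tac1 and Nts, 1.5-fold lower for Rax and Adcyap1r1, and either for Ntsr2 and Slc17a6, so for these genes the counts leave room for a difference of that size.

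The ratios depended on what the UMIs were set against. With C1qa kept in the totals, 14 of the 15 genes had a ratio above 1, or 93.3% against 53.3% without C1qa, and the median ratio was 1.27. On that scale 1 gene passed 1.5-fold, Nts at 1.65 (0.95 to 2.91), which is 6.67% of the genes compared. The intervals of 11 of 15 genes, Nts among them, held 1. The exceptions were Mag at 1.44 (1.23 to 1.68), Mt1 at 1.36 (1.19 to 1.55), Rarres2 at 1.33 (1.08 to 1.65) and Cx3cr1 at 1.15 (1.045 to 1.27). In UMIs per barcode all 15 genes were higher in the Snap25-positive class, and 8 of them (53.3%) at least 1.5-fold. No gene was 1.5-fold lower on either of these scales, and Rax had the lowest ratio on all 3, at 0.97 with C1qa kept and 1.20 per barcode.

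**Figure D2:**
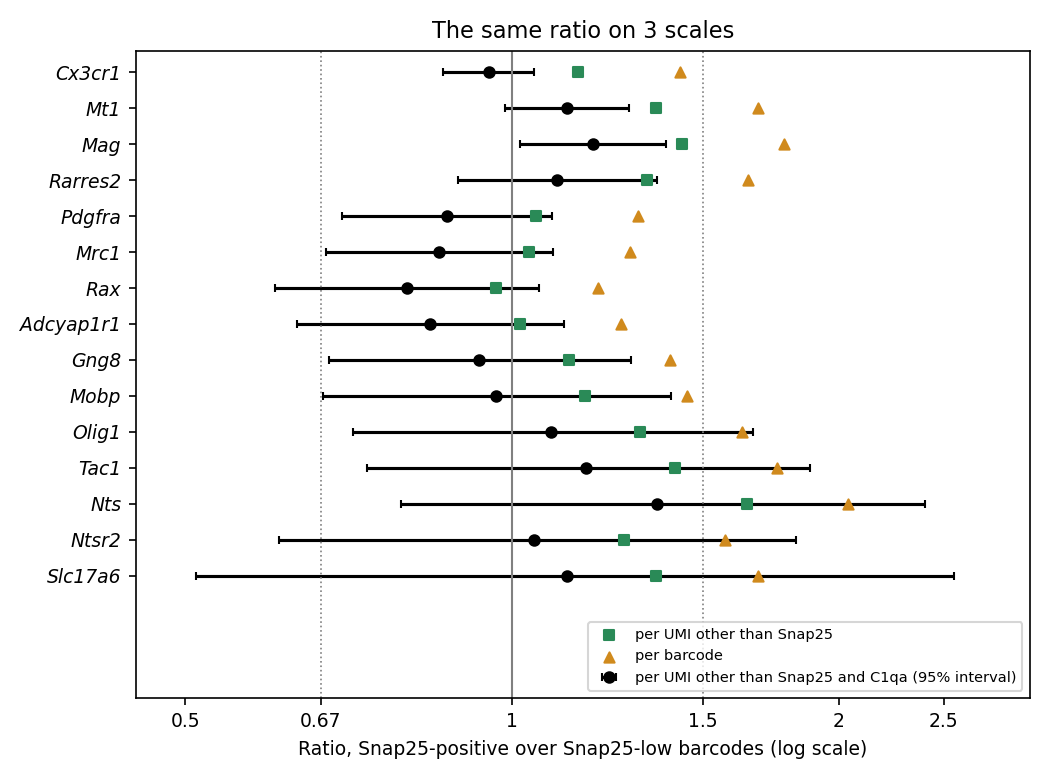
For each of the 15 genes the ratio of the Snap25-positive over the Snap25-low class is shown on a log axis per UMI other than Snap25 and C1qa (black, with 95% interval), per UMI other than Snap25 (green squares) and per barcode (orange triangles). Dotted lines mark 1.5-fold either way, which no black point passes, while 1 green and 8 orange points do.

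Of the neuronal genes compared, Nts had the highest ratio of the 15 on all 3 scales. Tac1 and Slc17a6 had ratios above the median, but the intervals of all 3 genes held 1. The peptide gene Sst, too sparse to be compared, went the other way, at 0.30 (0.07 to 1.04) from 4 and 10 UMIs. Tac1 (NM_009311.2) ran from 0 through a median of 1 to 6 UMIs a barcode in the Snap25-positive class and from 0 through 0 to 6 in the Snap25-low class. Both classes thus had the same highest count, in 1 barcode each, which carried 4 and 1 Snap25 UMIs. The level of Tac1 was 16.0 per 1000 UMIs other than Snap25 and C1qa (11.9 to 21.1; 50 UMIs) in the Snap25-positive class and 13.7 (9.37 to 19.3; 32 UMIs) in the other. Their ratio was 1.17 (0.74 to 1.88). Slc17a6 (NM_080853.3) had at most 4 UMIs in a Snap25-positive and 2 in a Snap25-low barcode, with a median of 0 in both. Its level was 5.77 (3.42 to 9.11; 18 UMIs) against 5.14 (2.65 to 8.97; 12 UMIs), a ratio of 1.12 (0.51 to 2.56). That direction did not hold: the ratio of Slc17a6 was 0.59 (0.15 to 2.17) between the quartiles of depth and 0.54 (0.23 to 1.22) when barcodes were classed by Snap25 per UMI. Nts (NM_024435.2), which encodes the peptide neurotensin, had at most 3 UMIs in either class. Its level was 12.8 (9.16 to 17.5; 40 UMIs) against 9.42 (5.90 to 14.3; 22 UMIs), and the ratio of 1.36 had an interval of 0.79 to 2.40. With the limit at 5 Snap25 UMIs it was 0.80 (0.28 to 1.85). Gng8, a G protein gamma subunit, was at 29.2 against 31.2, and Adcyap1r1, the receptor of the neuropeptide PACAP, at 34.9 against 41.5.

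Genes of glia and immune cells were found in both classes, and none of those compared reached 1.5-fold relative to the UMIs other than C1qa. Cx3cr1 (NM_009987.4) was in every barcode, from 7 through a median of 18 to 62 UMIs in the Snap25-positive class and from 2 through 11 to 35 in the Snap25-low class. Its level was 306 per 1000 (287 to 326) against 321 (299 to 345), a ratio of 0.95 (0.86 to 1.05). The ratio of Mrc1, the mannose receptor of border macrophages, was 0.86 (0.67 to 1.09), with levels of 48.1 and 56.1. It turned with the limit, to 0.74 (0.56 to 0.998) at 1 Snap25 UMI and 1.61 (1.16 to 2.19) at 5. The limit of 5 leaves 8 positive barcodes with 50 Mrc1 UMIs, of which single barcodes held 14 and 11. In the Snap25-low class 1 barcode held 16 Mrc1 UMIs among its 29 UMIs other than Snap25 and C1qa. Mag (XM_011250438.2), an adhesion protein of myelin, was in every barcode too, from 1 through 6 to 36 UMIs in the Snap25-positive class and from 1 through 4 to 15 in the Snap25-low class. The level of Mag was 139 (126 to 152) against 117 (103 to 132) and its ratio 1.19 (1.02 to 1.39). The 3 barcodes with the most Mag held 36, 34 and 22 UMIs, and all 3 were Snap25-positive, with 3, 2 and 3 Snap25 UMIs. Without them the ratio of Mag was 1.01 (0.86 to 1.19), a choice by Mag itself that could only lower it. Without the 5% of barcodes with the most UMIs it was 1.26 (1.07 to 1.48). Between the quartiles of depth the ratio of Mag was 1.26 (1.01 to 1.58), and with the limit at 5 Snap25 UMIs it was 0.96 (0.75 to 1.22). Mobp, another myelin protein gene, had a ratio of 0.97 (0.67 to 1.40) and Olig1, a transcription factor of the oligodendrocyte lineage, 1.09 (0.71 to 1.67). Between the quartiles of depth the ratio of Olig1 was 1.71 (0.92 to 3.33). Pdgfra, the growth factor receptor of oligodendrocyte precursors, had 0.87 (0.70 to 1.09).

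Genes of the ventricular wall were likewise in both classes. Rax (NM_013833.2), a transcription factor of tanycytes, the lining cells of the third ventricle, ran from 0 through a median of 2 to 6 UMIs in the Snap25-positive class and from 0 through 1 to 6 in the other. Its level was 34.9 (28.7 to 42.1) against 43.7 (35.6 to 53.0), a ratio of 0.80 (0.60 to 1.06). Rax thus had the lowest ratio of the 15 genes, with an interval that reached past 1. Among the barcodes between the quartiles of depth, 26 of each class, its ratio was 0.57 (0.38 to 0.86), from 42 and 61 UMIs. Rarres2, which encodes the secreted protein chemerin, had a ratio of 1.10 (0.89 to 1.36). Ntsr2, a neurotensin receptor of astrocytes, had 1.05 (0.61 to 1.83). Mt1 (NM_013602.3), a metallothionein that binds zinc and copper, was at 183 (168 to 198) against 163 (147 to 180), a ratio of 1.12 (0.98 to 1.28). The 3 barcodes with the most Mt1 held 62, 49 and 39 UMIs and were Snap25-positive. Without them the ratio of Mt1 was 0.94 (0.82 to 1.09), a choice by Mt1 itself that could only lower it. Between the quartiles of depth the ratio of Mt1 was 1.18 (0.97 to 1.44), and without the 5% of barcodes with the most UMIs 1.02 (0.88 to 1.18). It was 0.998 (0.845 to 1.19) with the limit at 1 Snap25 UMI. With the limit at 5, which leaves 8 positive barcodes, it was 1.28 (1.07 to 1.54), an interval above 1.

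**Figure D3:**
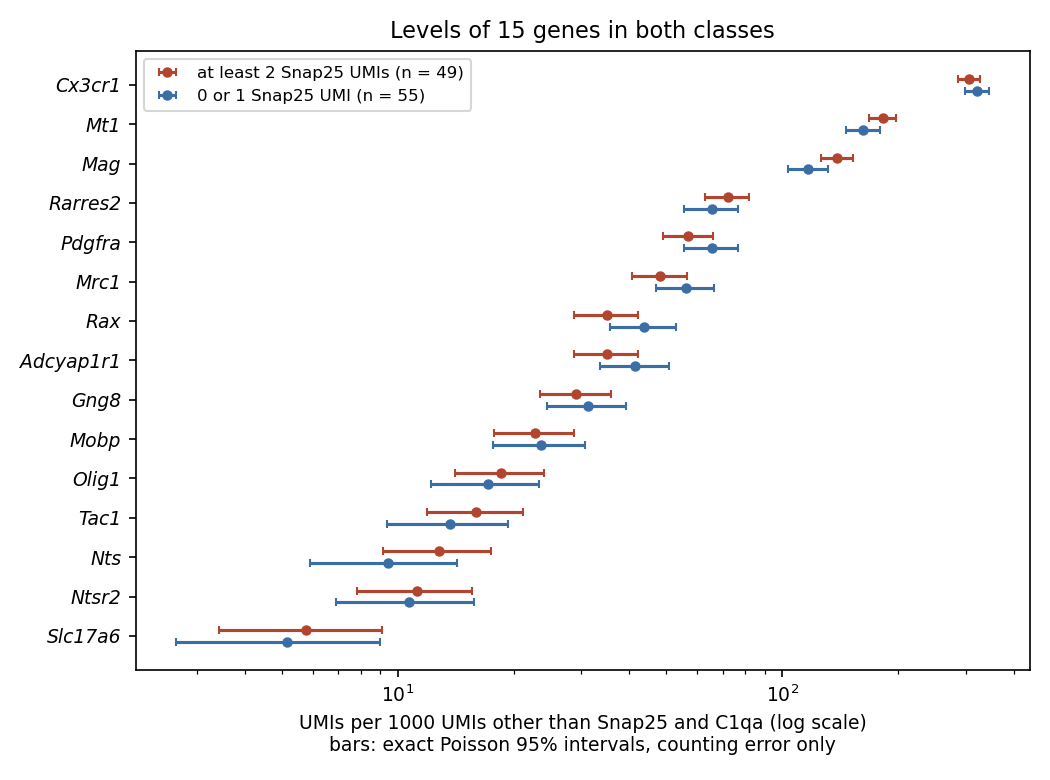
Levels of the 15 genes on a log axis, in UMIs per 1000 UMIs other than Snap25 and C1qa, for the Snap25-positive (red, n = 49) and Snap25-low (blue, n = 55) barcodes, with exact Poisson 95% intervals. The intervals of the 2 classes overlap for all 15 genes.

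The share of barcodes with a UMI of a gene moved with depth, so it was also taken at equal depth. With all UMIs, Tac1 was in 26 of 49 Snap25-positive barcodes (53.1%, 38.3 to 67.5) and in 23 of 55 Snap25-low ones (41.8%, 28.7 to 55.9). Slc17a6 was in 13 (26.5%, 14.9 to 41.1) and 11 (20.0%, 10.4 to 33.0). Nts was in 25 (51.0%, 36.3 to 65.6) and 16 (29.1%, 17.6 to 42.9). The widest gaps belonged to the oligodendrocyte genes Olig1, in 75.5% and 41.8%, and Mobp, in 77.6% and 49.1%. When 20 UMIs other than Snap25 and C1qa were drawn from each barcode, which left out 4 Snap25-low barcodes, Tac1 was in 24.8% and 24.4%, Slc17a6 in 8.46% and 10.5% and Nts in 21.0% and 16.1%. Olig1 was then in 34.8% and 27.6% and Mobp in 40.8% and 33.7%, so the gap of Olig1 was 7.20 points in place of 33.7. The widest gap at this depth was that of Mrc1, in 60.2% of Snap25-positive and 71.2% of Snap25-low barcodes. With 300 UMIs drawn from each barcode and C1qa among them, Tac1 was in 28.1% and 21.7% and Slc17a6 in 10.2% and 8.73%. Every barcode also held C1qa, Cx3cr1 and Mag. The part of free RNA in these shares was not tested.

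**Figure D4:**
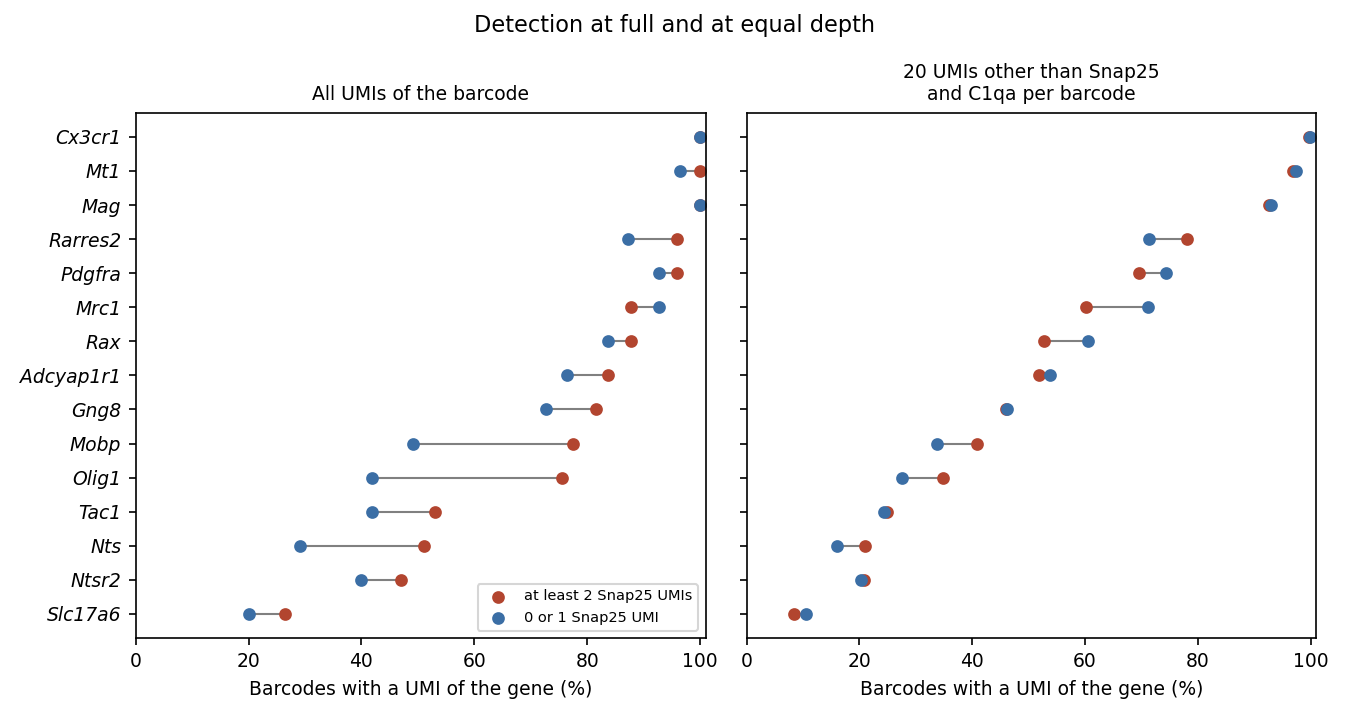
Share of Snap25-positive (red) and Snap25-low (blue) barcodes with a UMI of each of the 15 genes, with all UMIs (left) and with 20 UMIs other than Snap25 and C1qa drawn from each barcode (right). The gaps of Olig1, Mobp and Nts on the left are narrower on the right, where Tac1 is in 24.8% and 24.4%.

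The number of genes found in a barcode, Snap25 left out, ran from 8 through a median of 13 to 17 in the Snap25-positive class and from 5 through 12 to 17 in the Snap25-low class. At 20 UMIs other than C1qa the expected number was 8.15 ± 0.996 (SD over 49 barcodes) and 8.30 ± 1.02 (SD over 51 barcodes). The SD here is between barcodes of 1 library, not between replicates. At 300 UMIs with C1qa among them the mean was 9.49 over 49 barcodes and 8.88 over 55 barcodes. Single barcodes ran from 6.46 to 12.7 and from 4.68 to 11.4. The lower mean was thus in the Snap25-positive class without C1qa and in the Snap25-low class with it.

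A finer split by Snap25 count gave no steady course for the neuronal genes. The level of Tac1 was 8.15 per 1000 (3.52 to 16.1; 8 UMIs) in the 24 barcodes with 0 Snap25 UMIs, 17.7 (11.3 to 26.4) at 1, 10.7 (5.54 to 18.7) at 2, 25.6 (14.9 to 41.0) at 3 and 15.7 (9.72 to 24.01) in the 16 barcodes with at least 4. Slc17a6 was at 8.15 (8 UMIs) with 0 and 8.98 (12 UMIs) with at least 4 Snap25 UMIs, and its levels between these ends, from 2.68 to 4.52, were lower. Both genes thus had neighbouring values whose intervals overlapped, and the ends of the scale were alike for Slc17a6. The C1qa share was 93.7%, 93.5%, 92.4%, 92.9% and 91.7% along the same 5 steps. Between the ends the ratio of Tac1 was 1.93 (0.82 to 5.03) and that of Slc17a6 1.10 (0.41 to 3.10). With the limit set at 1 Snap25 UMI the ratio of Tac1 was 2.03 (0.98 to 4.87) and that of Slc17a6 0.60 (0.26 to 1.57), so these genes passed 1.5-fold in opposite directions. With the limit at 5 UMIs, which leaves 8 positive barcodes, they were 0.80 (0.33 to 1.67) and 0.53 (0.06 to 2.11).

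**Figure D5:**
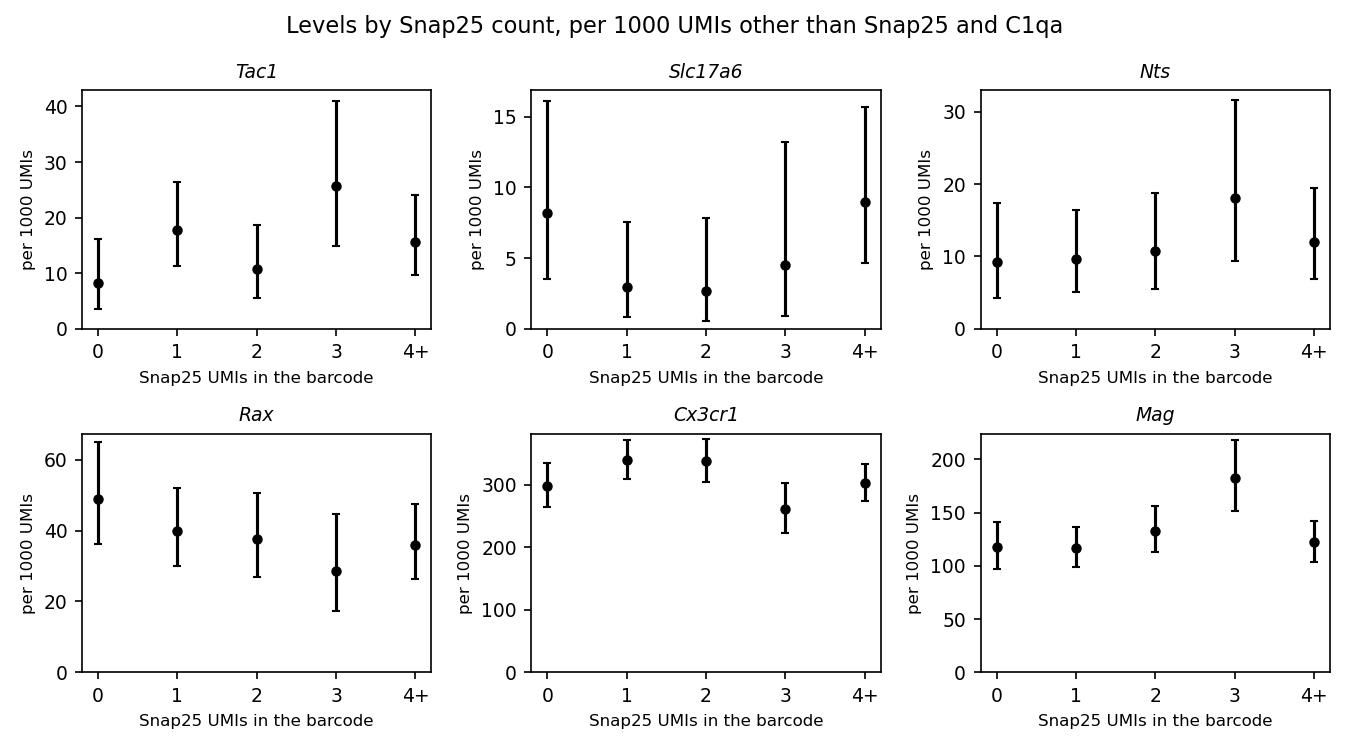
Levels of 6 genes in barcodes with 0, 1, 2, 3 and at least 4 Snap25 UMIs (x axis), in UMIs per 1000 UMIs other than Snap25 and C1qa (y axes, from 0), with exact Poisson 95% intervals. Tac1 and Slc17a6 show no steady course, Rax is highest at 0 Snap25 UMIs, at 48.9, and Mag highest at 3, at 182.

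Barcodes that carried several neuronal genes at once were found in both classes and carried the immune and myelin genes as well. Tac1 and Slc17a6 were together in 8 of 49 Snap25-positive barcodes (16.3%, 7.32 to 29.7) and in 4 of 55 Snap25-low ones (7.27%, 2.02 to 17.6). Tac1, Nts and Slc17a6 were together in 7 barcodes (14.3%, 5.94 to 27.2) and 1 barcode (1.82%, 0.046 to 9.72). These 8 barcodes with all 3 genes had a median of 1072 UMIs other than Snap25, against 579 in the 32 barcodes with none of them. Their C1qa share lay between 87.5% and 95.5%, and each held Cx3cr1, with a median of 21.5 UMIs. Per 1000 UMIs other than Snap25 and C1qa, the 12 barcodes with both Tac1 and Slc17a6 had 311 of Cx3cr1 and 135 of Mag. A deeper barcode is more likely to show a UMI of each of Tac1, Nts and Slc17a6, so the greater depth of these barcodes is no separate finding. They were dominated by C1qa, as was every barcode of both classes.

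Across the marker lists, none had a member past 1.5-fold in either direction among the genes compared on the scale without C1qa. The median ratio of all 15 genes was 1.05. Of the microglial list, C1qa, Cx3cr1 and Aif1 were measured and had UMIs, though Aif1 had only 4 over both classes. Cx3cr1 was the single member compared, at 0.95. The summed level of Cx3cr1 and Aif1 ran from 7 to 62 UMIs in Snap25-positive and from 2 to 35 in Snap25-low barcodes. The 3 oligodendrocyte members, Mag, Mobp and Olig1, had a median ratio of 1.09 and were summed at 180 and 158 per 1000, and the precursor genes Pdgfra and Olig1 at 75.6 and 82.6. Of the peptide list 25 members were measured and 6 had UMIs, with 36 of 49 and 38 of 55 barcodes holding at least 1. The summed level of this list had a ratio of 1.07 (0.78 to 1.49). Syt1, the vesicle calcium sensor and the other gene of neuronal structure that these columns measure, was at 0 in every barcode of both classes, as was Slc32a1, the transporter of GABA into vesicles. A count of 0 over both classes allows a share of up to 2.88% of barcodes with a UMI. The endothelial gene Cldn5 was at 0 as well.

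The remaining genes were too sparse to compare. Of the 75 genes 27 had UMIs and 48 had none, among them Agrp, Npy, Pomc, Avp and Oxt. The 10 genes with 1 to 19 UMIs held 66 UMIs together. Foxj1, a transcription factor of ciliated ependymal cells, had 11 UMIs in the Snap25-positive and 6 in the Snap25-low class, Myh11 of smooth muscle 6 and 8, the peptide gene Sst 4 and 10, the glial factor Sox9 3 and 4, and Aif1 1 and 3. Npvf had 1 and 2 UMIs, Pvalb 1 and 2, Slc38a5 1 and 1, Trh 1 and 0 and Pmch 0 and 1. With the limit lowered to 10 UMIs, Myh11 and Sst were the 2 genes of 18 that were at least 1.5-fold lower in the Snap25-positive class.

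The other library of the same gene set, labelled panel 1 of replicate 2, could not be split in this way. It had 25 barcodes with 830 to 1226 UMIs and a median of 1044, more than the median of 705 over the Snap25-positive and Snap25-low barcodes of replicate 3. Snap25 was in 3 of the 25 (12%, 2.55 to 31.2), with 1 UMI each, and none reached 2. Its median of UMIs other than Snap25 and C1qa was 154, against 45 in replicate 3. Tac1, Slc17a6, Nts, Rax, Ntsr2, Gng8, Adcyap1r1 and Mobp were at 0 there, and a count of 0 in 25 barcodes allows a share of up to 12%. In replicate 3, Rax was in 85.6% of barcodes, Adcyap1r1 in 79.8% and Gng8 in 76.9%. Other genes went the other way. Pvalb was in all 25 barcodes, at 69.1 per 1000 UMIs other than Snap25 and C1qa against 0.55 in replicate 3, where 2.88% of barcodes held it. Aif1 was in 16 of the 25, at 14.4 against 0.73. C1qa took 85.0% of its UMIs other than Snap25, Cx3cr1 was at 188 per 1000 UMIs other than Snap25 and C1qa against 313 in replicate 3, and Pdgfra at 321 against 60.7. Cck, in 14 of 25 barcodes, and Hcrt, in 11, had UMIs in that library and none in replicate 3. These are 2 captures, 1 library each, and their difference was not tested. Whether the gene names of the 2 tables stand over the same amplicons was not tested either. A difference of captures cannot be told apart here from one of column names.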

How the data were processed

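The deposited values are UMI counts per barcode and amplicon, not normalized, made by the authors with RSEC error correction in the BD Targeted Rhapsody pipeline (version 1.5, per the file headers). The build named is mm9, per the submitters' processing notes. Neither the aligner nor the rule for calling cells is given in the sources used here. Amplicons of a symbol were summed. No barcode was filtered, since the lowest held 309 UMIs, and no doublets were called. The total of the 49 and 55 barcodes was 76898 UMIs. Of their cell indices, 2 also belonged to a barcode of the other gene set in the same table.

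Levels are sums over a class per 1000 UMIs, without Snap25 and, in the main scale, without C1qa. Genes with at least 20 UMIs were compared by size, at 1.5-fold. Detection at equal depth is the exact expectation for UMIs drawn without replacement. Each class is part of 1 library, so nothing was tested. The calculation was tested on simulated data with more UMIs a barcode than these and with counting error only. That check does not show how the intervals do at the depth of these barcodes or with spread between barcodes. Named genes are the 4 given markers, all genes with at least 20 UMIs, and counts for the rest. The members and gene lists were chosen with earlier results of these data known. Alternatives changed the limit, totals, barcodes and minimum. Python 3.11.15, numpy 2.4.6, pandas 2.3.3, scipy 1.17.1 and matplotlib 3.10.9 were used.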

Additional observations from a re-analysis of the deposited data

How the results depend on the processing

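No paired analysis was possible because both classes lie in 1 library. The main values were 49 positive barcodes, a C1qa difference of -1.34 points, ratios of 1.17 for Tac1 and 1.12 for Slc17a6, and 0 genes past 1.5-fold in either direction. With a limit of 1 Snap25 UMI there were 80 positive barcodes, the ratio of Tac1 was 2.03, and 1 gene was higher (Tac1) and 1 lower (Slc17a6). With a limit of 5 there were 8 positive barcodes, the C1qa difference was -0.901 points, and 1 gene was higher (Mrc1) and 1 lower (Slc17a6). Classed by Snap25 per UMI other than C1qa, the C1qa difference was 0.338 points and 1 gene was lower (Slc17a6). Without the 5% of barcodes with the most UMIs the C1qa difference was -0.949 points. Between the quartiles of depth there were 26 positive barcodes, and of 13 genes 1 was higher (Olig1) and 1 lower (Rax). With C1qa kept in the totals 1 gene was higher (Nts), and with genes of at least 10 UMIs 2 were lower (Myh11 and Sst). In settings chosen after seeing the data, 0 against at least 4 Snap25 UMIs gave 16 positive barcodes, a C1qa difference of -2.02 points, a Tac1 ratio of 1.93 and 1 higher gene (Tac1), and a size of 1.25-fold gave 1 higher gene (Nts) and 1 lower (Rax). The cause of these shifts was not tested. The ratio of Slc17a6 was below 1 in 6 of the 10 settings that give it and at least 1.5-fold lower in 4, down to 0.53. Slc17a6 rests on 30 UMIs and Nts on 62, and the intervals of their ratios are wide. Mrc1, with 281 UMIs, also shifted, from 0.74 to 1.61 over the settings without C1qa in the totals.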
